A study of Mus musculus with 16 samples.

Results

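The actin-bundling proteins described here are fascin (Fscn1) and 8 others, drebrin (Dbn1), the alpha-actinins (Actn1, Actn2, Actn4), the plastins (Pls3, Lcp1) and the MARCKS proteins (Marcks, Marcksl1). They were taken by gene symbol from the gene table of the study, 9 of 26625 entries, and all 9 passed the filter on low counts that left 18826 genes for testing. The question was whether the rise of Fscn1 after morphine, and its fall after Kdm7a knockdown, was shared by the other bundlers. Fscn1 was chosen by its own levels in these mice, its rise from Ctrl + Saline to Ctrl + Morphine and its fall from Ctrl + Morphine to Kdm7a-shRNA + Morphine, so both differences are given for it as a description and without a test.

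Samples of the medial prefrontal cortex (mPFC) of 16 male C57BL/6 mice, 8 to 10 weeks old, were sequenced as full-length cDNA on the Nanopore platform. All mice had received an adeno-associated virus in the mPFC, pAAV-U6-shRNA(Kdm7a)-CMV-EGFP-WPRE in the 9 knockdown mice and the same vector with a control hairpin in the 7 Ctrl mice, which the labels call WT. The U6 and CMV promoters of this vector are not restricted to a cell type. Mice then received saline or morphine (10 mg/kg) in 10 days of place conditioning, and tissue was taken on the 7th day of withdrawal, which gave 3 Ctrl + Saline mice, 4 Ctrl + Morphine mice, 5 Kdm7a-shRNA + Saline mice and 4 mice of the Kdm7a-shRNA + Morphine group.

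Between 6596991 and 12418112 reads were counted per mouse. Levels are given as normalized CPM, which are read counts relative to the library total after scaling with edgeR's TMM factors, and they were not compared between genes, since they are not per length. A gene was called in a comparison when edgeR's quasi-likelihood test over all tested genes gave a Benjamini-Hochberg adjusted p under 0.05 and the fold change was at least 1.5. Fold changes are on the log2 scale, the later named group over the first. Kdm7a, the targeted demethylase, was at 6.19 to 9.78 normalized CPM in the Ctrl mice and at 3.01 to 6.28 in the knockdown mice, of which 8 were below all Ctrl mice. Its log2 fold change with knockdown was -0.76 under saline (adjusted p = 0.0153, edgeR), which was called. Under morphine it was -0.67 (adjusted p = 0.0506), which was not called, and the groups overlapped. After morphine in Ctrl mice Kdm7a was lower, by -0.29 (adjusted p = 0.643, edgeR), and not called. All 4 Ctrl + Morphine mice (6.19 to 8.89) were below all 3 Ctrl + Saline mice (9.08 to 9.78). The share of all tested genes separated in this direction is not given here. Markers of cortical excitatory neurons were present in every mouse, at 695 to 1550 summed normalized CPM over 5 genes. The summed level of 10 microglial markers was 608 to 1446 in the Ctrl mice and 1312 to 6039 in the knockdown mice, where Kdm7a-shRNA + Morphine replicate 3 (5890) stood far above the other mice of its group (1312 to 2407). Ctrl + Saline replicate 1 was the highest of its 3 mice for Fscn1, Dbn1 and Actn4. In a bulk sample, fewer cells of a type and less RNA per cell cannot be told apart.

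Actin filaments are flexible polymers, and bundling proteins tie them side by side into stiffer cables. Fascin packs parallel filaments tightly, the arrangement found in filopodia and growth cones, while alpha-actinins also link filaments in looser arrays. In neurons, the actin of dendritic spines carries the postsynaptic density and is remodelled during plasticity. Drebrin decorates spine actin, and the MARCKS proteins bind actin and membrane lipids and are released by protein kinase C, which also phosphorylates fascin.

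The upstream sequences of 3 genes are shown because the results turn on them. Fscn1 is the gene whose pattern was asked about, Dbn1 was the bundler most like it, and Lcp1 went the other way. All are from RefSeq (build GRCm38.p6), end at the first base before the gene as annotated by GENCODE vM21, and are written 5′ to 3′ on the strand of the gene, with capitals marking a cyclic AMP response element (TGACGTCA), a TATA box (TATAAA) or a GC box (GGGCGG, or CCGCCC on the other strand).
Fscn1, chr5:142960105-142960342, plus strand: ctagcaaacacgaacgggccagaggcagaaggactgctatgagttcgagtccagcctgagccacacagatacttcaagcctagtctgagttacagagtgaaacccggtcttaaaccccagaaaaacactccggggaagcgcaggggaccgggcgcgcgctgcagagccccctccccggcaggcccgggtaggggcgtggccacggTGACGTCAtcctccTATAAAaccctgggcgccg
Dbn1, chr13:55488112-55488326, minus strand: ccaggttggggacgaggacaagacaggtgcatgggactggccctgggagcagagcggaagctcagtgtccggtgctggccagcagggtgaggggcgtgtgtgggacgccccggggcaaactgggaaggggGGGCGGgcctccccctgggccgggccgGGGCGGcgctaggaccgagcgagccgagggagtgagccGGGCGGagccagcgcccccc
Lcp1, chr14:75130873-75131100, plus strand: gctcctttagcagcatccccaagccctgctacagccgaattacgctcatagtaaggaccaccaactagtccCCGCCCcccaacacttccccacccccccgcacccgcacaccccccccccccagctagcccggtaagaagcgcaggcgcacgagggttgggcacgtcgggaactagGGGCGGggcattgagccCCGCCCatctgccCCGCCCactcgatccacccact

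The Fscn1 stretch held 1 cyclic AMP response element and 1 TATA box, which start 33 and 19 bases before the gene, and no GC box. The Dbn1 stretch held 3 GC boxes and that of Lcp1 held 4, and neither held one of the other motifs. Over 250 upstream bases, the full cyclic AMP response element was found in 1.55% of 32851 RefSeq promoters, the TATA box in 12.4% and the GC box in 32.7%. RefSeq promoters matched 8 of the 9 bundlers, all but Marcks, with 11 promoters in all. Fscn1 was the only one of these 8 with the full element or the TATA box, and 6 of the 11 promoters held a GC box. Fscn1 had 18 CpG dinucleotides in its 250 bases, Dbn1 23 and Lcp1 16 at the promoter shown, where the median of all promoters was 6. These matches describe letters only.

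Fscn1 (ENSMUSG00000029581, GRCm38 chr5:142960343-142973185, plus strand, no overlapping gene) encodes fascin. Its level was 53.5, 33.8 and 37.1 normalized CPM in the Ctrl + Saline mice and 90.2, 67.5, 55.6 and 98.5 in the Ctrl + Morphine mice. In the Kdm7a-shRNA + Saline mice it was 53.9, 39.3, 38.2, 47.0 and 41.9, and in the Kdm7a-shRNA + Morphine mice 33.4, 46.5, 36.9 and 46.3. All 4 Ctrl + Morphine mice were above every other mouse, and the other 3 groups overlapped. Among all tested genes, 7.04% had every Ctrl + Morphine mouse above every Ctrl + Saline mouse, and 7.51% had every Kdm7a-shRNA + Morphine mouse below every Ctrl + Morphine mouse. The group means were 41.5 ± 10.6 (SD, n = 3), 77.97 ± 19.8 (n = 4), 44.1 ± 6.47 (n = 5) and 40.8 ± 6.66 (n = 4) in the same order. The log2 fold change was 0.91 from Ctrl + Saline to Ctrl + Morphine and -0.94 from Ctrl + Morphine to Kdm7a-shRNA + Morphine. Left out in turn, no single mouse took the first outside 0.78 to 1.10 or the second outside -1.07 to -0.81.

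**Figure D1:**
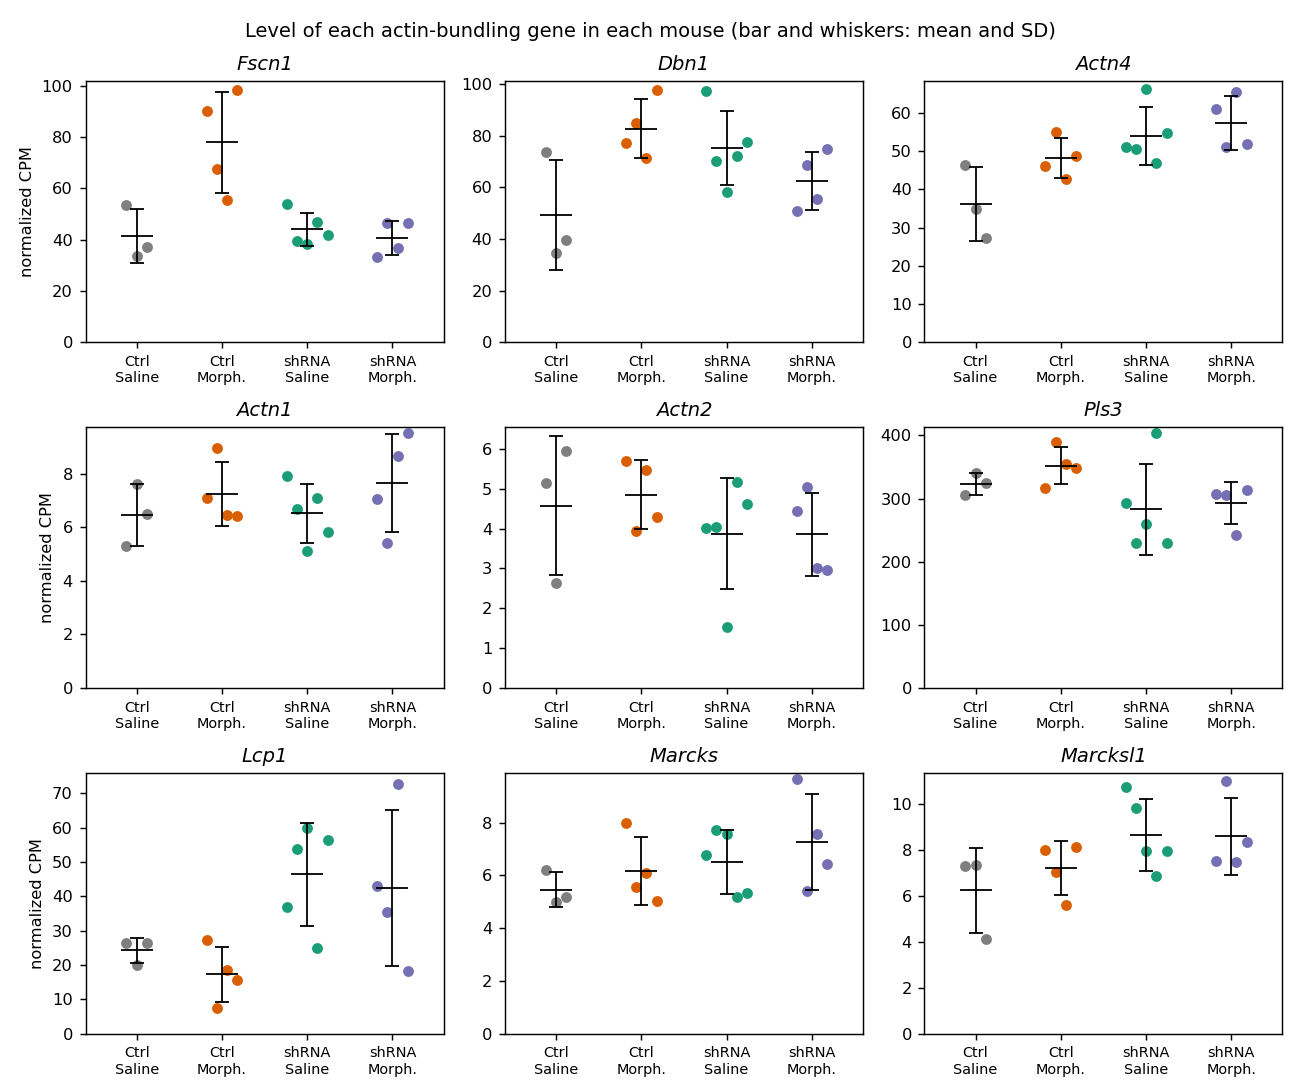
Normalized CPM (linear axis from 0) of the 9 bundlers, 1 point per mouse, with a bar and whiskers for the mean and SD of each group (n = 3, 4, 5 and 4 mice from left to right). The Ctrl + Morphine mice stand above all others for Fscn1 (55.6 to 98.5), and the knockdown mice reach higher than the Ctrl mice for Lcp1 (up to 72.8 against 27.3).

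The other comparisons of Fscn1 each take 1 group from the mice that chose it, so they too are given without a test. In saline mice, knockdown gave a log2 fold change of 0.09 (SE 0.197), and in knockdown mice morphine gave -0.11 (SE 0.180). The level of Fscn1 in knockdown mice was 33.4 to 53.9 normalized CPM with either treatment, against 33.8 to 53.5 in Ctrl + Saline mice. The interaction, the knockdown difference under morphine minus that under saline, was -1.03 on the log2 scale, and it contains the values of the rule.

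The summed levels of striatal and astrocyte markers are set beside Fscn1 by group, and those of the other lists by their r. The summed level of 6 markers of striatal projection neurons was 68.6 to 90.8 normalized CPM in the Ctrl + Saline mice and 117 to 146 in the Ctrl + Morphine mice, and no gene of this list was called. It was 60.7 to 155 in the Kdm7a-shRNA + Saline mice, where Fscn1 was at 38.2 to 53.9, and 73.9 to 108 in the Kdm7a-shRNA + Morphine mice, all below the Ctrl + Morphine mice, as for Fscn1. Gene by gene, the median log2 fold change of the 6 was 0.14 after morphine in Ctrl mice and -0.18 after knockdown under morphine. The summed level of 7 astrocyte markers was 9228 to 11680 in the Ctrl + Saline mice, 7449 to 9125 in the Ctrl + Morphine mice and 8346 to 10248 in the Kdm7a-shRNA + Morphine mice, also without a called gene in either comparison. Over the 16 mice, log2 Fscn1 had a Pearson r of 0.51 with the striatal markers, but 0.08 within groups. With the astrocyte markers r was -0.72 (-0.56 within groups), and with 5 pan-neuronal markers it was 0.04. The other lists ran from -0.60 for choroid plexus and ependyma (-0.35 within groups) to 0.48 for interneurons (0.22 within groups). Among them were mural cells at -0.60 (-0.45 within groups) and microglia at -0.52 (-0.22 within groups). All these values share their libraries. The part of these cell types in the Fscn1 difference was not tested.

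Beside Fscn1, 3 of the other 8 bundlers (Dbn1, Pls3 and Actn2) had a higher fitted level in the Ctrl + Morphine group than in the Ctrl + Saline group and a lower one in the Kdm7a-shRNA + Morphine group. These comparisons share the Ctrl + Morphine mice, so opposite signs in them are not independent. Actn2 is among the 3 with a rise of only 0.10 (SE 0.339). By sign alone, 48.2% of all tested genes were higher after morphine and 49.6% after knockdown under morphine. The share of all tested genes with both signs of Fscn1 was not counted, so the 3 of 8 are a description. Fscn1 alone of the bundlers had both differences at a fold of at least 1.5, and it was chosen by them. None of the 8 was called after morphine, where 0% of the 18826 tested genes were called, and none was called lower after knockdown under morphine, where 4.83% of tested genes were. In that second comparison Lcp1, which was higher, was the 1 of the 8 with an unadjusted p under 0.05 (25.5% of tested genes had one) and the 1 called by DESeq2. After morphine, 2205 genes (11.7%) had an unadjusted p under 0.05, among them Dbn1 and Actn4, and DESeq2 called 185 genes, none of them among these 8. The median log2 fold change of the 8 was 0.17 after morphine and 0.16 after knockdown under morphine, beside -0.01 and -0.0045 for all tested genes and 0.04 and 0.05 for the known genes among them. With scaling by library size alone, the median of all tested genes after knockdown was lower, -0.11 under morphine and -0.12 under saline. The called genes then split into 394 higher and 1246 lower under morphine, against 538 and 910, and into 967 higher and 2342 lower under saline, against 1398 and 1753. Among known genes only, without the loci that the authors assembled from the reads, the split was 268 and 178 under morphine and 875 and 544 under saline.

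**Figure D2:**
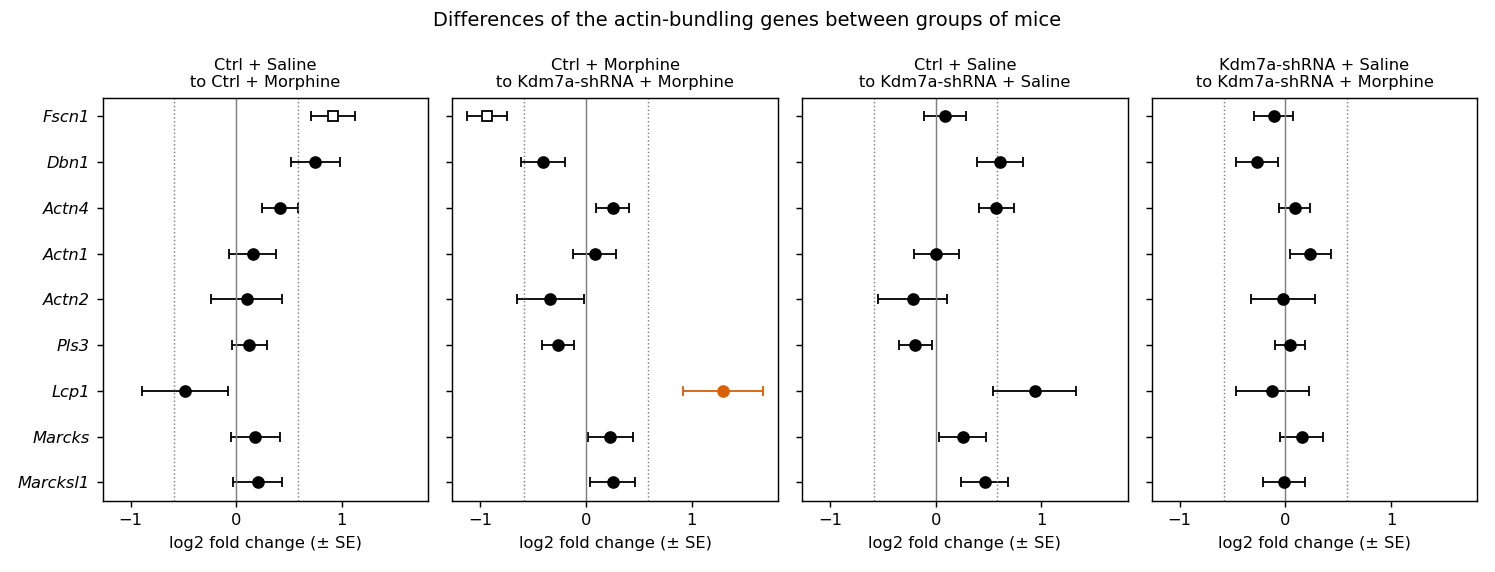
Log2 fold change (point) and standard error (whisker) of each bundler in the 4 comparisons of groups, with dotted lines at a fold of 1.5. Open squares mark the differences by which Fscn1 was chosen (0.91 and -0.94), and the coloured point marks the called difference, that of Lcp1 after knockdown under morphine (1.30).

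Dbn1 (ENSMUSG00000034675, chr13:55473429-55488111, minus strand, with the microRNA gene Mir6944 inside it on the same strand) encodes drebrin. Its level was 73.7, 34.4 and 39.7 normalized CPM in the Ctrl + Saline mice and 77.0, 84.9, 71.2 and 97.7 in the Ctrl + Morphine mice. It was 97.4, 70.3, 58.1, 72.1 and 77.7 in the Kdm7a-shRNA + Saline mice and 50.9, 68.5, 55.3 and 74.9 in the Kdm7a-shRNA + Morphine mice. The Ctrl + Saline group held the lowest values together with 1 mouse at the level of the other groups. From Ctrl + Saline to Ctrl + Morphine the log2 fold change was 0.75 (SE 0.230, unadjusted p = 0.00433, adjusted p = 0.207, edgeR), and 3 of 4 Ctrl + Morphine mice were above every Ctrl + Saline mouse. From Ctrl + Morphine to Kdm7a-shRNA + Morphine it was -0.41 (SE 0.209, adjusted p = 0.232), with 3 of 4 knockdown mice below every Ctrl + Morphine mouse.

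In saline mice the log2 fold change of Dbn1 with knockdown was 0.61 (SE 0.221, adjusted p = 0.0583). Neither this difference nor that after morphine in knockdown mice (-0.27, SE 0.199, adjusted p = 0.805) passed the threshold. The interaction was -1.02 (SE 0.303, unadjusted p = 0.00355, adjusted p = 0.193, edgeR). That of Fscn1 was -1.03, but it contains the values by which Fscn1 was chosen. The knockdown differences behind them were unlike, 0.61 under saline and -0.41 under morphine for Dbn1, against 0.09 and -0.94 for Fscn1. These Dbn1 results turned on 1 mouse. Without Ctrl + Saline replicate 1 (73.7 normalized CPM), Dbn1 was called after morphine (log2 fold change 1.12, adjusted p = 0.0120), after knockdown in saline mice (0.98, adjusted p = 0.00434) and for the interaction (-1.38, adjusted p = 0.0114). In the same fit, 230 of 19425 tested genes were called after morphine (0 with all mice), 3099 after knockdown in saline mice (3151 with all mice) and 266 for the interaction (16 with all mice), so the change was not confined to Dbn1. Over the fits that left out another mouse, the adjusted p after morphine was at most 0.592. After knockdown in saline mice, Dbn1 was also called without Kdm7a-shRNA + Saline replicate 3 (0.69, adjusted p = 0.0460) and by DESeq2 (0.60, adjusted p = 0.0418).

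Over the 16 mice, log2 Dbn1 followed log2 Fscn1 with a Pearson r of 0.72 and a Spearman rho of 0.84. Within groups, after subtraction of the group means, r was 0.82, and without the 2 mice farthest from the median of Fscn1 it was 0.78 over 14 mice. The plot of both genes by mouse shows this relation inside the groups. Dbn1 ranked 171 of 14443 known genes by this r, whose median over known genes was -0.01. The other 7 bundlers had an r with Fscn1 between -0.55 (Lcp1) and 0.42 (Pls3). These are descriptions over libraries that share depth and composition.

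**Figure D3:**
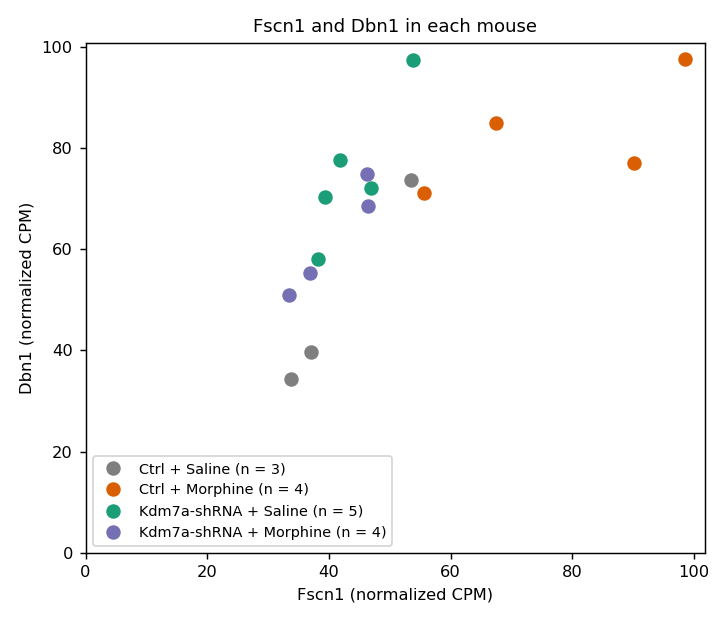
Normalized CPM of Fscn1 (x axis) and Dbn1 (y axis) in each of the 16 mice, coloured by group. The Ctrl + Morphine mice reach the highest levels of both genes (98.5 and 97.7), and the Kdm7a-shRNA + Saline mice combine Fscn1 of 38.2 to 53.9 with Dbn1 of 58.1 to 97.4.

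The genes most like Fscn1 over the 16 mice were Myef2 (r = 0.93), Get4 (0.91), Rbp4 (0.91), Ap3b2 (0.91) and Rpp25 (0.87), and the least like were Cript (-0.87), Ctnnbl1 (-0.87) and Shroom3 (-0.86). Within groups their r was 0.68 to 0.83 and -0.81 to -0.71. Rbp4, which encodes a retinol carrier, had means of 46.1, 89.6, 39.6 and 35.1 normalized CPM in the groups in the order given for Fscn1. Cript, whose product binds the scaffold protein PSD-95, had 129, 104, 122 and 130. None of the bundlers was among these 8 genes. The 8 were picked by their r with Fscn1 over the same mice, so group means that follow or oppose Fscn1 come with that choice.

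Actn4 (ENSMUSG00000054808, chr7:28893248-28962340, minus strand) encodes a non-muscle alpha-actinin, which crosslinks filaments as an antiparallel dimer. It overlaps Capn12 on the other strand, and whether the counting used the strand is not stated. Its level was 46.5, 34.9 and 27.2 normalized CPM in the Ctrl + Saline mice and 46.2, 55.0, 42.7 and 48.8 in the Ctrl + Morphine mice. It was 51.1, 50.7, 66.4, 46.9 and 54.8 in the Kdm7a-shRNA + Saline mice, all above the Ctrl + Saline mice, and 61.0, 51.2, 65.5 and 51.8 in the Kdm7a-shRNA + Morphine mice. Levels were thus lowest in the Ctrl + Saline group and not lower with knockdown. In saline mice knockdown gave a log2 fold change of 0.58 (SE 0.164, adjusted p = 0.0202), a fold of 1.49, which fell just short of the fold threshold. In this comparison 11.1% of tested genes had all second-group mice above all first-group mice, and 7.43% were called higher.

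The adjusted p of Actn4 in saline mice depended on the Ctrl + Saline mice. It was 0.00552 without replicate 1 (log2 fold change 0.76, called), and 0.146 without replicate 3 (0.38) and 0.0727 without replicate 2 (0.56). Without Kdm7a-shRNA + Saline replicates 1, 2 or 4 the fold passed the threshold too (0.59, 0.60 and 0.62). After morphine the log2 fold change was 0.41 (SE 0.170, adjusted p = 0.342) in Ctrl mice and 0.09 in knockdown mice (SE 0.146, adjusted p = 0.926). From Ctrl + Morphine to Kdm7a-shRNA + Morphine it was 0.25 (SE 0.155, adjusted p = 0.329), the opposite sign to Fscn1. Averaged over both treatments, knockdown gave 0.41 (SE 0.112, adjusted p = 0.0108), a fold of 1.33.

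The other alpha-actinins had few reads. Actn1 (ENSMUSG00000015143, chr12:80167547-80260371, minus strand, overlapped by Gm47765 and by the antisense genes Gm47766 and Gm47767) had 40 to 101 counts per mouse, and Actn2 (ENSMUSG00000052374, chr13:12269426-12340760, minus strand) had 13 to 57. Actn1 is the widely expressed non-muscle form, and Actn2 is a muscle form that is also present in spines, where it binds NMDA receptors. Actn1 ran from 5.10 to 9.53 normalized CPM over the 16 mice, and its log2 fold changes were 0.16 after morphine in Ctrl mice (SE 0.222, adjusted p = 0.824), 0.09 after knockdown under morphine (SE 0.203, adjusted p = 0.835) and 0.01 after knockdown under saline (SE 0.214, adjusted p = 0.986). Actn2 was at 5.15, 2.63 and 5.96 in the Ctrl + Saline mice and 5.69, 3.95, 5.48 and 4.28 in the Ctrl + Morphine mice. It was at 4.02, 4.03, 1.54, 5.17 and 4.62 in the Kdm7a-shRNA + Saline mice and 4.44, 5.04, 3.01 and 2.95 in the Kdm7a-shRNA + Morphine mice. All 4 groups overlapped. Its log2 fold change was 0.10 after morphine in Ctrl mice (SE 0.339, adjusted p = 0.936) and -0.34 after knockdown under morphine (SE 0.317, adjusted p = 0.547), and the first became -0.19 without Ctrl + Saline replicate 2.

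Pls3 (ENSMUSG00000016382, chrX:75785654-75875182, minus strand) encodes T-plastin, the plastin of solid tissues, and had the most reads of the bundlers (1996 to 3643 counts per mouse). Its level was 306, 340 and 324 normalized CPM in the Ctrl + Saline mice, 317, 389, 355 and 348 in the Ctrl + Morphine mice, 293, 230, 259, 404 and 230 in the Kdm7a-shRNA + Saline mice and 307, 306, 243 and 314 in the Kdm7a-shRNA + Morphine mice. All 4 Kdm7a-shRNA + Morphine mice were below all Ctrl + Morphine mice, as for 7.51% of tested genes, but the gap was narrow, 314 against 317. The log2 fold change was -0.27 after knockdown under morphine (SE 0.151, adjusted p = 0.281) and -0.19 after knockdown under saline (SE 0.155, adjusted p = 0.406). After morphine it was 0.12 in Ctrl mice (SE 0.163, adjusted p = 0.809) and 0.05 in knockdown mice (SE 0.143, adjusted p = 0.960). Over the 16 mice, log2 Pls3 had an r of 0.84 with 5 markers of excitatory neurons and -0.84 with the 10 microglial markers. Its difference is therefore given beside these sums, which were 997 to 1550 and 608 to 1280 in the Ctrl + Morphine mice and 845 to 1467 and 1312 to 5890 in the Kdm7a-shRNA + Morphine mice, and their part in it was not tested.

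Lcp1 (ENSMUSG00000021998, chr14:75131101-75230842, plus strand) encodes L-plastin, the plastin of blood cells and other leukocytes, microglia included. It overlaps the non-coding genes Gm15628 and Gm15629 on the other strand. Its level was 26.3, 20.01 and 26.5 normalized CPM in the Ctrl + Saline mice, 27.3, 7.58, 18.5 and 15.7 in the Ctrl + Morphine mice, 36.9, 53.8, 60.0, 25.0 and 56.5 in the Kdm7a-shRNA + Saline mice and 42.9, 35.5, 72.8 and 18.4 in the Kdm7a-shRNA + Morphine mice. In 7 of the 9 knockdown mice it was above all 7 Ctrl mice. From Ctrl + Morphine to Kdm7a-shRNA + Morphine it rose by 1.30 on the log2 scale (SE 0.377, adjusted p = 0.0379), opposite to Fscn1. It was the 1 bundler of the 8 called in this comparison, where 2.86% of tested genes were called higher and 7.69% were called in all. Under saline the difference was 0.94 (SE 0.394, adjusted p = 0.1001). Averaged over both treatments, knockdown raised Lcp1 by 1.12 (SE 0.274, adjusted p = 0.00569), again the 1 called bundler of the 8, where 17.6% of tested genes were called.

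The averaged call of Lcp1 held without any single mouse, with log2 fold changes of 0.92 to 1.27. The call under morphine ended without Ctrl + Morphine replicate 2 (1.05, adjusted p = 0.0801), 3 (1.33, adjusted p = 0.0810) or 4 (1.25, adjusted p = 0.110) and without Kdm7a-shRNA + Morphine replicate 1 (1.30, adjusted p = 0.0722) or 3 (0.90, adjusted p = 0.166). Under saline, Lcp1 was called without Kdm7a-shRNA + Saline replicate 4 (1.10, adjusted p = 0.0468). After morphine the log2 fold change was -0.49 in Ctrl mice (SE 0.407, adjusted p = 0.686) and -0.12 in knockdown mice (SE 0.346, adjusted p = 0.958).

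Lcp1 moved with the microglial markers from mouse to mouse. Over the 16 mice, log2 Lcp1 had an r of 0.95 and a rho of 0.91 with the log2 sum of the 10 markers, and within groups r was 0.94. This was not confined to microglia. The r of Lcp1 was -0.90 with excitatory neuron markers (-0.90 within groups) and -0.77 with pan-neuronal markers (-0.92 within groups). It was 0.86 with endothelial markers (0.80 within groups) and 0.82 with oligodendrocyte precursor markers (0.81 within groups). Of the microglial markers, 7 were called higher after knockdown under morphine and 9 under saline, and none was at 0 in every mouse of a group. Per 1000 summed CPM of microglial markers, Lcp1 was at 18.3 to 19.7 in the Ctrl + Saline mice, 12.5 to 21.3 in the Ctrl + Morphine mice, 9.93 to 13.2 in the Kdm7a-shRNA + Saline mice and 12.4 to 17.8 in the Kdm7a-shRNA + Morphine mice. Under saline these ratios did not overlap and were lower in the knockdown mice, and under morphine they overlapped. The part of microglia or of other cell types in the Lcp1 difference was not tested. The plot of Lcp1 against the marker sum shows both values rising together over the mice.

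**Figure D4:**
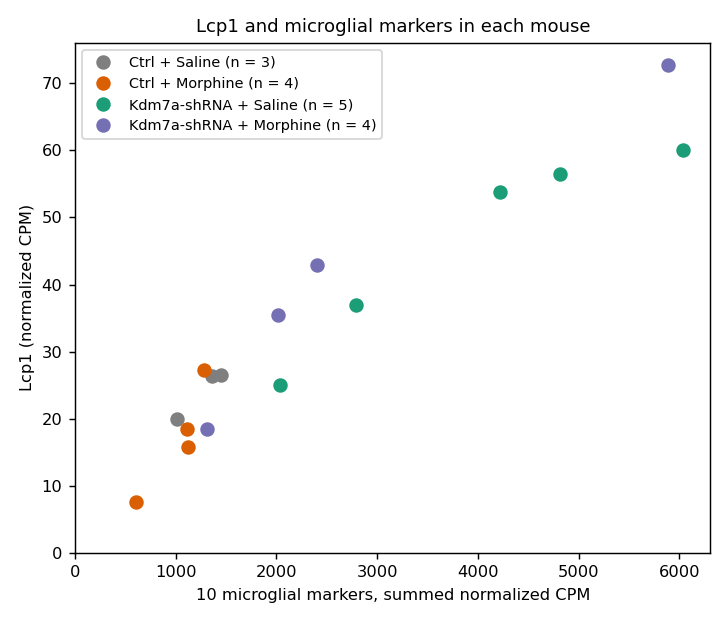
Normalized CPM of Lcp1 (y axis) against the summed normalized CPM of 10 microglial markers (x axis) in each of the 16 mice, coloured by group. The 7 Ctrl mice lie at 608 to 1446 on the x axis and 7.58 to 27.3 on the y axis, and the 9 knockdown mice reach 6039 and 72.8.

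The MARCKS proteins had 39 to 88 (Marcks) and 31 to 93 (Marcksl1) counts per mouse. Both are substrates of protein kinase C at the membrane. Marcks (ENSMUSG00000069662, chr10:37133375-37138920, minus strand) ran from 4.98 to 9.65 normalized CPM over all mice, with log2 fold changes of 0.18 after morphine in Ctrl mice (SE 0.233, adjusted p = 0.801), 0.23 after knockdown under morphine (SE 0.211, adjusted p = 0.537) and 0.26 under saline (SE 0.223, adjusted p = 0.439). Marcksl1 (ENSMUSG00000047945, chr4:129513581-129515985, plus strand) was at 7.27, 7.32 and 4.11 in the Ctrl + Saline mice and 7.99, 7.04, 5.599 and 8.13 in the Ctrl + Morphine mice. It was at 10.7, 9.79, 7.94, 6.86 and 7.94 in the Kdm7a-shRNA + Saline mice and 7.51, 11.0, 7.47 and 8.32 in the Kdm7a-shRNA + Morphine mice. Of the 9 knockdown mice, 4 were above all Ctrl mice. Its log2 fold change was 0.20 after morphine in Ctrl mice (SE 0.232, adjusted p = 0.775), 0.25 after knockdown under morphine (SE 0.211, adjusted p = 0.492) and 0.46 under saline (SE 0.222, adjusted p = 0.147). Neither gene had the sign of Fscn1 after knockdown under morphine.

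After knockdown under saline, none of the 8 bundlers without Fscn1 was called, where 16.7% of tested genes were, and their median log2 fold change was 0.36 beside 0.01 for all tested genes and 0.10 for the known genes among them. At an unadjusted p under 0.05, a share of 34.7% of tested genes, there were Actn4, Dbn1 and Lcp1, and DESeq2 called Dbn1. After morphine in knockdown mice none of the 8 was called, where 0.00531% of tested genes (1 gene) were, none had an unadjusted p under 0.05 (7.02% of tested genes had) and DESeq2 called 20 genes, none of them a bundler. None of them was called for the interaction, where 0.085% of tested genes (16 genes) were, and Dbn1 was the 1 bundler with an unadjusted p under 0.05 (10.7% of tested genes had). DESeq2 called 217 genes for the interaction, and none of the 8.

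The bundlers act on filaments that other proteins assemble, cut and anchor, and 169 further genes of actin were grouped in 8 lists, of which 157 were tested. After morphine in Ctrl mice none of the 157 was called. After knockdown under morphine 5 were called higher and 3 lower, and under saline 17 higher and 4 lower, beside 2.86% and 4.83%, and 7.43% and 9.31%, of all tested genes. Those shares include the assembled loci, which the lists do not hold. In a fit of known genes only, 268 of 14435 genes were called higher and 178 lower under morphine, and 875 and 544 under saline. Some list calls ended in that fit, as given below. The list counts above are from the fit of all tested genes, so they cannot be set directly against those of known genes only. The median log2 fold change of the 157 was 0.04, 0.03 and 0.13 in these comparisons, beside 0.04, 0.05 and 0.10 for all known genes. The plot of called genes by list shows that the higher calls were spread over several lists.

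**Figure D5:**
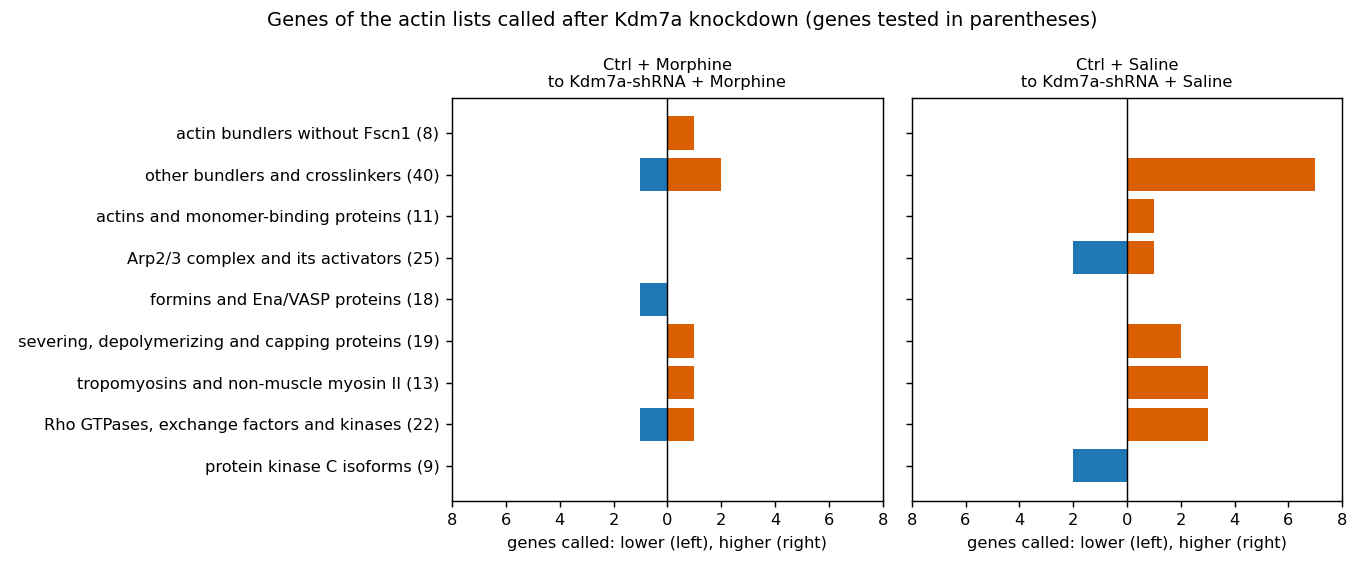
Number of genes called higher (right) and lower (left) after Kdm7a knockdown in the 8 bundlers without Fscn1 and in 8 other actin lists, with the number of tested genes in parentheses. Under saline the other bundlers and crosslinkers hold 7 of the 17 higher calls, and the protein kinase C isoforms are lower calls alone (2 of 9).

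Under morphine, the called crosslinkers were Hcls1 (1.39, adjusted p = 0.0272), a cortactin relative of blood cells, Palld (1.68, adjusted p = 0.0283), which encodes palladin and had 3 to 90 counts, and Ppp1r9b (-0.65, adjusted p = 0.0363). Ppp1r9b encodes spinophilin, a spine scaffold that binds actin and protein phosphatase 1, and it had means of 62.6 ± 12.5, 108 ± 20.8, 97.1 ± 23.8 and 68.6 ± 9.68 normalized CPM in the groups in the order given for Fscn1. Its means thus had the order of Dbn1. Of the other lists, the capping protein Capg (1.65, adjusted p = 0.0243), the myosin light chain Myl12a (0.95, adjusted p = 0.0126) and the GTPase Rhoc (1.19, adjusted p = 0.00939) rose, and the nucleator Cobl (-0.86, adjusted p = 0.00763) and the GTPase Rac3 (-0.98, adjusted p = 0.0291) fell. Cobl, Myl12a and Rhoc were called without any single mouse. The calls of Hcls1, Palld, Capg, Ppp1r9b and Rac3 all ended without Kdm7a-shRNA + Morphine replicate 3 (adjusted p = 0.0981 to 0.138) and without Ctrl + Morphine replicate 4 (adjusted p = 0.0542 to 0.121), as did that of Lcp1. Leaving out Ctrl + Morphine replicate 2 ended those of Hcls1, Capg and Ppp1r9b (adjusted p = 0.0549 to 0.0757), replicate 3 those of Hcls1, Palld and Capg (0.0700 to 0.0847) and replicate 1 that of Ppp1r9b (0.0857). Leaving out Kdm7a-shRNA + Morphine replicate 1 ended those of Hcls1, Palld, Ppp1r9b and Rac3 (0.0521 to 0.0988) and replicate 2 that of Ppp1r9b (0.0673). With all mice, the calls of Hcls1 (0.0733), Capg (0.0611) and Rac3 (0.0617) ended with the compared groups alone, and those of Hcls1 (0.0512) and Palld (0.0512) with known genes only.

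Under saline, the first-ranked crosslinkers were Cnn3 (1.80, adjusted p = 0.00199), a calponin, and Ctnna1 (0.64, adjusted p = 0.00849), an alpha-catenin. In the other lists, Pfn1 (0.96, adjusted p = 0.0244), which encodes the monomer-binding profilin, the Arp2/3 subunit Arpc1b (1.15, adjusted p = 0.0438), Capg (2.35, adjusted p = 0.00352), the cofilin kinase Limk1 (0.75, adjusted p = 0.0270), the tropomyosin Tpm4 (0.78, adjusted p = 0.0244), the non-muscle myosin Myh9 (0.89, adjusted p = 0.0255), Rhoc (1.11, adjusted p = 0.00901) and Rhoa (0.74, adjusted p = 0.0116) rose. The Arp2/3 subunit Arpc5 (-0.65, adjusted p = 0.00126), the WAVE complex member Abi2 (-0.62, adjusted p = 0.0469) and the kinases Prkce (-0.90, adjusted p = 0.00825) and Prkca (-0.64, adjusted p = 0.0230) fell. Cnn3, Capg, Arpc5 and Prkce were called without any single mouse. Leaving out Ctrl + Saline replicate 2 ended the calls of Ctnna1 (0.57, below the fold threshold) and of Pfn1, Arpc1b, Tpm4, Myh9, Rhoa, Abi2 and Prkca (adjusted p = 0.0641 to 0.355). Replicate 3 did so for Pfn1, Arpc1b, Limk1, Tpm4, Myh9, Rhoc and Abi2 (0.0524 to 0.154) and replicate 1 for Arpc1b, Limk1 and Myh9 (0.0566 to 0.142). Of the Kdm7a-shRNA + Saline mice, replicate 1 ended the calls of Limk1 (0.0601) and Abi2 (0.0604), replicate 2 those of Arpc1b, Myh9, Abi2 and Prkca (0.0504 to 0.0951), replicate 3 those of Arpc1b, Tpm4, Myh9 and Abi2 (0.0549 to 0.101), and replicate 5 those of Arpc1b (0.0851) and Abi2 (0.102). With all mice, known genes only ended the calls of Ctnna1 (log2 fold change 0.56), Arpc1b, Limk1, Myh9 and Tpm4 (adjusted p = 0.0502 to 0.0737), and library size alone those of Ctnna1 (0.51), Arpc1b (0.0589) and Limk1 (0.0585). The compared groups alone ended those of Abi2 (0.0747) and Limk1 (0.0550), no filter that of Abi2 (0.0510) and at least 10 counts in every mouse that of Arpc1b (0.0589).

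Averaged over both treatments, knockdown called 21 of the 157 genes higher and 5 lower, beside 7.68% and 9.93% of all tested genes. In the fit of known genes only, 1042 of 14435 genes were called higher and 414 lower, which is not the fit that gave the list counts. Beyond the genes named so far, the first-ranked genes of their lists were Acta2 (0.75, adjusted p = 0.0267), which encodes smooth muscle actin, the WAVE complex member Cyfip1 (0.62, adjusted p = 0.00911) and Gsn (0.67, adjusted p = 0.0261), which encodes gelsolin, as higher, and the formin Diaph2 (-0.76, adjusted p = 0.0221) as lower. The call of Acta2 ended without Ctrl + Morphine replicate 4 (adjusted p = 0.0570), Ctrl + Saline replicate 3 (0.0804) or Kdm7a-shRNA + Morphine replicate 3 (0.0561), and so did that of Gsn (0.0554, 0.0853 and 0.0580). The fold of Cyfip1 fell below the threshold without Ctrl + Morphine replicate 2 (0.56), Ctrl + Saline replicate 1 (0.58), Kdm7a-shRNA + Morphine replicate 3 (0.47) or Kdm7a-shRNA + Saline replicate 3 (0.54), and the call of Diaph2 ended without Ctrl + Saline replicate 2 (adjusted p = 0.0740). Known genes only and library size alone also ended the calls of Cyfip1 (0.55 and 0.49) and Gsn (adjusted p = 0.0502 and 0.0503), and at least 10 counts in every mouse that of Cyfip1 (0.58). Hcls1, Capg and Arpc1b are also expressed by microglia, whose summed markers were at 608 to 1446 normalized CPM in the Ctrl mice and 1312 to 6039 in the knockdown mice, and the part of those cells in these differences was not tested.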

How the data were processed

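Total RNA was sequenced by the authors as full-length cDNA (PCR-cDNA kit, PromethION), and reads without ribosomal RNA were placed on mm10 with minimap2, Pinfish and cDNA Cupcake. The deposited table gives raw counts and CPM per gene and mouse, and its CPM are these counts relative to each library's total. It includes loci that the authors assembled, 4382 of the 18826 tested. The submitters' processing notes name edgeR 3.8.6.

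The deposited counts were fitted with edgeR 4.0.16 (R 4.3.3; TMM, filterByExpr, quasi-likelihood test, 1 coefficient per group, all 16 mice), with p-values adjusted over all tested genes. The script was tested on simulated data. Alternatives were DESeq2 1.42.0, other scalings, filters, thresholds, samples and a replicate block. Correlations used log2 CPM, with a prior count of 0.5 for the ranking of known genes by r with Fscn1. Those of pairs of bundlers and of marker sums used no prior count.

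The members and gene lists were chosen with earlier results of these data known. Named were all members, Kdm7a, the 2 higher and 2 lower called genes with the smallest adjusted p per actin list and comparison, and the 5 known genes most and 3 least like Fscn1. The labels number the samples of a group without saying that each is 1 animal. They are called mice here, and p-values measure the spread between these samples.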

Additional observations from a re-analysis of the deposited data

Results flagged for a closer look

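In groups of 4 or 5 mice, 30 sets of values were examined for a mouse far from the rest of its group, and 2 were picked out, where chance picks out about 1 in 20. Actn2 was at 1.54 normalized CPM in Kdm7a-shRNA + Saline replicate 3, the lowest of its 5 mice (the others 4.02 to 5.17). Pls3 was at 243 normalized CPM in Kdm7a-shRNA + Morphine replicate 3, the lowest of its 4 mice (the others 306 to 314). The second is also the mouse with the most microglial marker RNA of its group (5890 summed normalized CPM).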

How the results depend on the processing

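Of the 8 bundlers without Fscn1, the 1 called after knockdown under morphine (Lcp1) became 0 with at least 10 counts in every mouse (adjusted p = 0.0526), with the compared groups alone (0.0947) and with known genes only (0.0694, an alternative chosen after seeing the data). It became 0 to 1 when a mouse was left out. After knockdown under saline, 0 became 1 with the adjusted p alone (Actn4), 1 with the compared groups alone (Lcp1), 1 with DESeq2 (Dbn1) and 0 to 2 without 1 mouse. After morphine and for the interaction, 0 became 0 to 1 without 1 mouse, and averaged over treatments 1 became 2 with the adjusted p alone (Actn4 and Lcp1). Counts of called genes among all tested genes, 1448 after knockdown under morphine, 3151 under saline and 3316 averaged, were 697, 1852 and 1525 with at least 10 counts in every mouse and 446, 1419 and 1456 with known genes only. They were 685 under morphine with the compared groups alone and 5190 averaged with the adjusted p alone. Leaving out 1 mouse moved the count under morphine to 933, 750 and 578 (Ctrl + Morphine replicates 1, 3 and 4) and 913 and 568 (Kdm7a-shRNA + Morphine replicates 1 and 3), and that under saline to 2083 and 1424 (Ctrl + Saline replicates 2 and 3). The highest counts were 2066 under morphine without Kdm7a-shRNA + Morphine replicate 4 and 3730 under saline without Kdm7a-shRNA + Saline replicate 4. The count after morphine, 0 with all mice, was 230 without Ctrl + Saline replicate 1 and 10 without Kdm7a-shRNA + Morphine replicate 2. The interaction count was 266 and 113 without these same mice, 39 without Ctrl + Morphine replicate 3 and 0 to 6 without any other. The shares of all tested genes given beside the bundlers rest on these counts. The interaction count of 16 was 34 without a filter, 6 with the replicate block and 217 with DESeq2. The cause of these changes was not tested beyond the number of genes and mice in each fit.

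Nothing in the labels says that a replicate number is shared by mice of different groups. For that reason the numbers were not taken to pair the mice. Over 21 same-numbered pairs of mice, deviations from the group means had r of -0.088 to 0.34 (median 0.009), and 5 were over 0.1. Over 74 other pairs the median was -0.004, but their range and their count over 0.1 were not taken. These values therefore do not decide whether some mice share a number by design. With the number as a replicate block, 2 bundlers were called after knockdown under saline (Actn4 0.61, adjusted p = 0.0350; Lcp1 1.03, adjusted p = 0.0431), and no other count of bundlers moved.

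Differences that were not called and changed sign included the following. With library size alone these were Fscn1 under saline (-0.037), Actn1 under morphine (-0.022) and saline (-0.13), and Dbn1 averaged (-0.012). Actn1 under saline was also -0.00068 with RLE size factors, -0.039 with at least 10 counts, -0.0093 with the compared groups alone, -0.0036 with DESeq2 and -0.074 with known genes only. Pls3 after morphine in knockdown mice was -0.0049 with the block. Without 1 mouse, the ranges that crossed 0 were -0.036 to 0.28 for Fscn1 under saline, -0.0035 to 0.30, -0.031 to 0.22 and -0.15 to 0.15 for Actn1 after morphine, under morphine and under saline, -0.19 to 0.32 for Actn2 after morphine and -0.036 to 0.34 for Marcksl1 after morphine. They were -0.020 to 0.21 and -0.14 to 0.087 for Pls3 after morphine in knockdown mice and for the interaction, and -0.53 to 0.12 and -0.042 to 0.68 for Lcp1. Of the low-count genes, further changes of sign were found for the interaction in Marcks (8 of 24 settings), Actn1 and Actn2 (2 each) and Marcksl1 (1), after morphine in knockdown mice in Actn2 and Marcksl1 (6 of 18 each) and Marcks (1), and averaged over treatments in Actn1 (4 of 24). With 13 to 101 counts per mouse, Actn1, Actn2, Marcks and Marcksl1 limit what could be detected.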

Other observations

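Other marker lists were read beside the bundlers. Of 6 interneuron markers, Sst, Pvalb, Vip, Gad2 and Slc32a1 were called after knockdown under saline, 2 as higher and 3 as lower, and the summed level was 488 to 549 normalized CPM in the Ctrl + Saline mice and 329 to 439 in the Kdm7a-shRNA + Saline mice. Under morphine Sst and Pvalb were called, 1 as higher and 1 as lower. Of 7 endothelial markers, Pecam1, Flt1 and Cldn5 were called higher under saline and Pecam1 under morphine, and of 7 astrocyte markers Gfap and Aldh1l1 were called higher under saline. Of 4 tested choroid plexus and ependyma markers, Foxj1 was called higher under saline. None of the markers of all neurons (5), excitatory neurons (5), oligodendrocytes (6), their precursors (4) or mural cells (7), nor of the 9 tested leukocyte markers, was called in either knockdown comparison. No marker of any list was called after morphine. The excitatory sum was 1027 to 1441 in the Ctrl + Saline mice and 695 to 1207 in the Kdm7a-shRNA + Saline mice.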
